A study of Mus musculus with 14 samples.

Results

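The 10 genes described here encode the 5 subunits of the transcription factor NF-kB (Rel, Rela, Relb, Nfkb1 and Nfkb2), 3 proteins that restrain or modify its activity and are themselves induced by it (Nfkbia, Nfkbid and Tnfaip3), and 2 induced genes of receptor signalling and cell survival (Traf1 and Birc3). They were taken by symbol, under a rule with no threshold on measured values, as the rows whose Ensembl ID maps to 1 of these symbols, and all 10 were found among the 55487 genes listed for the inducible mice and the 53801 listed for the Foxp3-YFP-cre mice. RNA-seq was performed on regulatory T cells (Tregs) sorted from mouse gut, from which the AP-1 family member JunB had been deleted, in 14 libraries. Peyer's patch (PP) Tregs came from untreated male Foxp3YFPcre mice, sorted as CD4+Foxp3(YFP)+CD62L- cells from 2 JunB F/+ (HET) and 2 JunB F/F (KO) animals. The other 10 libraries came from JunB F/+ (iHET) or JunB F/F (iKO) mice with Foxp3ERT2cre and a Rosa26-tdTomato reporter, in which Cre acts after tamoxifen. Their CD25- PP Tregs (2 iHET, 2 iKO) were sorted as TCRb+CD4+Foxp3(EGFP)+tdTomato+CD25- cells and their colonic Tregs (3 iHET, 3 iKO) by the same gate without CD25. Mice numbered 1 were male with Foxp3ERT2cre+, and mice numbered 2 and 3 were female with Foxp3ERT2cre+/+. All of the inducible mice, controls included, received 3 doses of 8 mg tamoxifen by gavage, on days 0, 1 and 3, and were examined on day 7. The controls carried 1 floxed and 1 wild-type Junb allele, and Cre was driven from the Foxp3 locus, so that after deletion 1 wild-type allele is compared with none in Foxp3-expressing cells. The study's methods report unintended germline deletion of Junb in the Foxp3-YFP-cre line. The labels give no age for the animals.

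NF-kB subunits form dimers that are held inactive in the cytoplasm by inhibitors of the IkB family until a receptor signal leads to degradation of the inhibitor. Nfkbia encodes IkBα, the best known of these inhibitors, and because NF-kB induces Nfkbia, Tnfaip3, Traf1 and Birc3, their transcripts are often read as feedback of the pathway. In T cells the pathway lies downstream of the antigen receptor, CD28 and members of the TNF receptor family, and c-Rel and RelA are known for their part in the development and upkeep of Tregs.

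The start sites of the members were examined for the sequences that NF-kB and AP-1 recognize, since the regulator deleted here belongs to AP-1. RefSeq promoter windows on GRCm38.p6, running from 250 bases before to 50 bases after a start site, were found for 8 members in 13 windows, and none was given for Nfkb1 and Relb. On either strand, the kappaB consensus was matched in 7 of the 13 windows and in 5 of the 8 members (Rel, Nfkb2, Nfkbia, Nfkbid and Tnfaip3), while 8.46% of all 32851 windows and 9.55% of 27025 genes had a match. The AP-1 motif TGANTCA, which reads the same on both strands, was matched in 2 of the 13 windows, 1 of Nfkb2 and 1 of Tnfaip3, against 7.81% of all windows. Both of these windows also matched the kappaB consensus, as did 0.539% of all windows, and no AP-1 match of a member overlapped a kappaB match. The windows of Rela, Traf1 and Birc3 held neither match, which says only that these letters are absent from these windows. Windows 2 and 3 of Nfkb2 overlap and share 1 kappaB match, which counts in both. For 4 members 1 window each is printed 5′ to 3′ with each match in capitals. Nfkbia and Nfkb2 were among the members called between organs, Rel varies most of the subunits and Tnfaip3 holds both motifs. Of the 3 Nfkb2 windows the first is printed, not the one with both motifs, and of the 2 Tnfaip3 windows the one with matches. The printed window of Nfkbia lies at chr12:55492598-55492897 on the minus strand and that of Nfkb2 at chr19:46304487-46304786 on the plus strand. That of Tnfaip3 lies at chr10:19015361-19015660 and that of Rel at chr11:23770920-23771219, both on the minus strand.
Nfkbia: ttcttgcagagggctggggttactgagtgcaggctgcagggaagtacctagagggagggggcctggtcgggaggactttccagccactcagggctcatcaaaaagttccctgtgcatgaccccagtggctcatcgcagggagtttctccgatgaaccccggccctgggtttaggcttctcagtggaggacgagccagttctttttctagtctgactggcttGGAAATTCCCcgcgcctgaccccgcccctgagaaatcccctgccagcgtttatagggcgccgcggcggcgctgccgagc
Nfkb2: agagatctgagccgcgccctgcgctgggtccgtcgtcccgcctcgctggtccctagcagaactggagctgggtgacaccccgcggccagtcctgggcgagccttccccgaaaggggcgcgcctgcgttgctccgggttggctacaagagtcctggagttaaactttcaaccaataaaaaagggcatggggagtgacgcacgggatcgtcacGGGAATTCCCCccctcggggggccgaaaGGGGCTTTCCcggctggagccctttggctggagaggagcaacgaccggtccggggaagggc
Tnfaip3: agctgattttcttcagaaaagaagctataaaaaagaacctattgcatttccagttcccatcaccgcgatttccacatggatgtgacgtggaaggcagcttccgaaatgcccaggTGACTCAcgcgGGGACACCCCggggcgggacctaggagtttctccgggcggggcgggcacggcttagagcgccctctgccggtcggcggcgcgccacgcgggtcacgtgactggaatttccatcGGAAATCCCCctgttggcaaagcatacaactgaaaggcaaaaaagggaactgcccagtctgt
Rel: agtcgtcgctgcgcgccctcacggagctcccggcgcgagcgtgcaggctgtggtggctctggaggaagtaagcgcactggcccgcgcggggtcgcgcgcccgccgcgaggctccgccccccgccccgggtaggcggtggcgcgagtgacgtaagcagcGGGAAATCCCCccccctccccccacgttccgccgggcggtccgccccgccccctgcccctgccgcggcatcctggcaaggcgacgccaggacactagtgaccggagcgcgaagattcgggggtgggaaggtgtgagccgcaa

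In the Nfkbia window, the match spans bases 29 to 20 before the start. The printed Nfkb2 window holds 2 stretches, at 39 to 29 and at 11 to 2 bases before the start, where overlapping matches were merged. In the printed Tnfaip3 window, the AP-1 motif at 136 to 130 bases before the start is followed by kappaB matches at 125 to 116 and at 12 to 3 bases. The Rel window has a match at 92 to 82 bases before its start. These are matches of letters, and binding of a factor was not measured in these libraries.

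**Figure D1:**
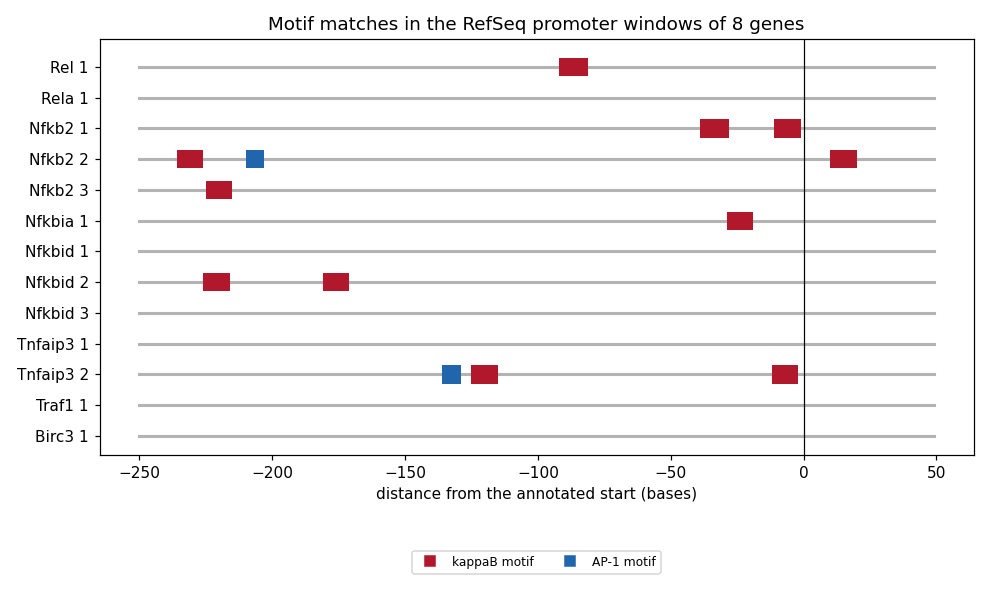
Positions of kappaB and AP-1 motif matches in the 13 RefSeq promoter windows of 8 members, with the distance from the start site in bases on the x axis. The 2 windows with an AP-1 match, of Nfkb2 and Tnfaip3, also hold kappaB matches.

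Between 26274861 and 35508709 reads were counted per library, so that 3 counts correspond to between 0.0845 and 0.114 CPM, which are counts scaled to library size. All 10 members were far above this level in all 14 libraries and passed the filter on low counts in each fit. Junb was at 4741 and 5316 CPM in HET and at 605 and 559.6 in KO PP Tregs, at 5529.6 and 4169 CPM in iHET and at 888 and 909 in iKO CD25- PP Tregs, and between 6843 and 8444 CPM in iHET and between 989.7 and 1025 in iKO colonic Tregs, as labelled. Foxp3, Cd4, Cd3e and 6 other markers of Tregs were detected in every library. The library of CD25- PP iHET mouse 2 stood apart, since it was the lowest of the 4 CD25- PP libraries for 10 members in CPM after edgeR's TMM normalization, the scale used for each member here, and for 8 of them (not Rela and Nfkb1) in CPM without TMM or per transcript length. In CPM without TMM, the members summed to 6035 in this library, to 10094 in iHET mouse 1 and to between 9981 and 10909 in the iKO libraries. Values of the members without this library are therefore given beside those with it. The libraries were bulk populations, in which fewer cells of a type and less RNA per cell cannot be told apart. Tests compare libraries of few mice. Their p-values set a group difference against a spread estimated from the libraries of the fit, with information shared between genes. For the organ comparisons this spread comes from all 10 inducible libraries.

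On a scale that accounts for transcript length, TPM computed from the counts and merged exon lengths, the feedback inhibitors were the most abundant members. Nfkbia (ENSMUSG00000021025.8, chromosome 12 of GRCm38 from 55489410 to 55492647) was between 1642 and 7165 TPM over the 14 libraries. Tnfaip3 (ENSMUSG00000019850.11, chromosome 10 from 19000910 to 19015657), which encodes the ubiquitin-editing enzyme A20, was between 1348 and 3623 TPM. Nfkbid (ENSMUSG00000036931.15, chromosome 7 from 30421732 to 30428746), which encodes the nuclear IkB protein IkBNS, was between 642 and 1807 TPM. The subunits were lower. Rela (ENSMUSG00000024927, chromosome 19 from 5637483 to 5648130), encoding the canonical activating subunit p65, was between 285 and 517 TPM. Nfkb2 (ENSMUSG00000025225, chromosome 19 from 46304320 to 46312385), encoding the p100 precursor of p52, was between 139 and 339 TPM. Relb (ENSMUSG00000002983.17, chromosome 7 from 19606217 to 19629438), its usual partner, was between 125 and 209.7 TPM. Rel (ENSMUSG00000020275.9, chromosome 11 from 23736847 to 23770970), encoding c-Rel, was between 53.5 and 311 TPM, the widest range of a subunit relative to its lowest value. Nfkb1 (ENSMUSG00000028163.17, chromosome 3 from 135584655 to 135691547), encoding the p105 precursor of p50, was between 48.9 and 79.6 TPM. On this scale it was below the other subunits in every library, except for Rel in CD25- PP iHET mouse 2. This order rests on the merged exon lengths, such as 12061 bases for Nfkb1 and 3885 for Relb. In mean CPM, Nfkb1 was above Relb in iHET CD25- PP Tregs (218 and 155) and below it in HET PP Tregs (167 and 208). The survival genes lay among the subunits in TPM. Traf1 (ENSMUSG00000026875.14, chromosome 2 from 34941750 to 34961772), a receptor adaptor, was between 157 and 378 TPM and Birc3 (ENSMUSG00000032000.17, chromosome 9 from 7848699 to 7873186), the ubiquitin ligase cIAP2, between 103 and 284 TPM. Within libraries, Nfkbia was above Tnfaip3 in 13 of 14, Tnfaip3 above Nfkbid, Nfkbid above Rela and Rela above Traf1 in 14 each, Traf1 above Nfkb2 in 13 and Nfkb2 above Relb in 14. The order of Relb, Rel and Birc3 was not stable, with Relb above Rel in 8 and Rel above Birc3 in 9 of the 14 libraries. The PP and inducible libraries were sequenced and normalized separately.

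**Figure D2:**
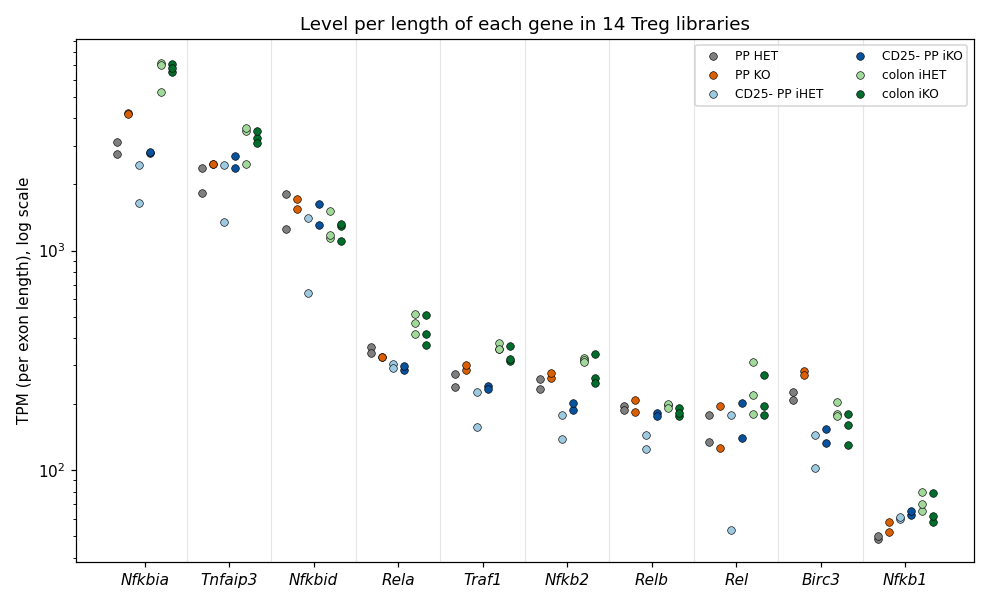
Level of each member in TPM on a log axis, with 1 point per library and colours for the 6 groups. Nfkbia, Tnfaip3 and Nfkbid lie at 642 TPM or above in every library, and Nfkb1 lies at 79.6 TPM or below in all of them.

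**Figure D3:**
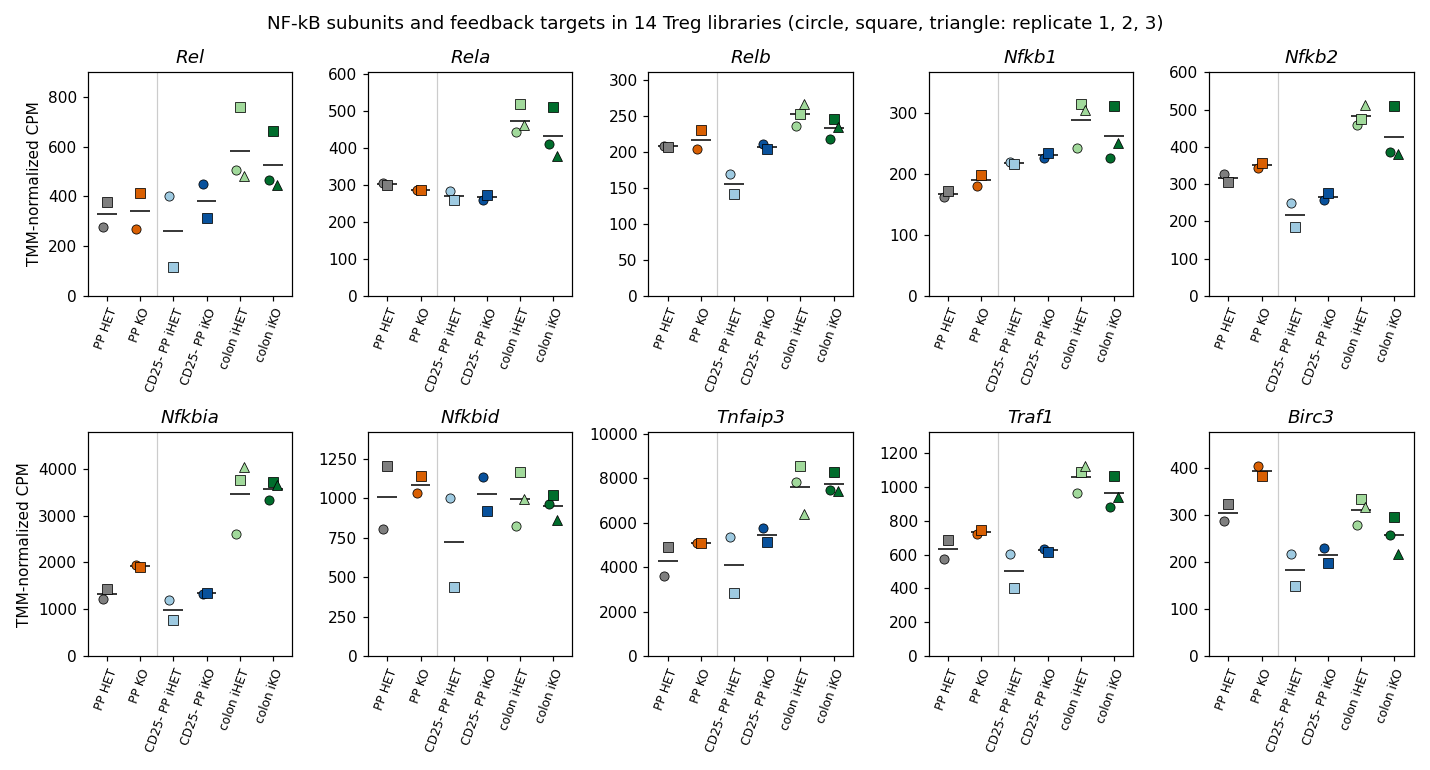
TMM-normalized CPM of the 10 members in each library, with 1 point per library, a panel per member, groups along the x axis, lines for group means and shapes for the mouse number. In CD25- PP Tregs the second iHET library is the lowest point for every member.

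In PP Tregs of Foxp3-YFP-cre mice, the comparison of KO with HET animals asks which members differ after long-term absence of JunB. The paper reports that KO patches had lost nearly all T follicular regulatory cells and many CD25- Tregs. It also names ongoing inflammation as a likely confounder of these data. Altered cell composition and altered RNA per cell cannot be told apart here. Nfkbia was higher in KO Tregs and the other 9 members passed the test in neither direction. Nfkbia was at 1217 and 1429 CPM in HET against 1944 and 1907 in KO libraries. Both KO libraries lay above both HET libraries, which gave a log2 fold change of 0.54 ± 0.11 (standard error, n = 2 against 2) and, in edgeR's quasi-likelihood test, a Benjamini-Hochberg adjusted p = 0.0350. Thus 1 of 10 members was called, in a comparison where 3.35% of the 12224 genes tested were called, 0.990% higher and 2.36% lower in KO Tregs. The call was kept without HET mouse 2 and lost without any of the other 3 libraries, with adjusted p between 0.0418 and 0.172 over these fits. It was kept in all 8 alternatives that used the 4 libraries, with adjusted p between 1.73e-08 and 0.0425.

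Birc3 showed the next largest difference, at 287 and 324 CPM in HET against 406 and 383 in KO Tregs, which did not overlap. Its log2 difference of 0.37 ± 0.09 missed the threshold (edgeR adjusted p = 0.0775), and it was called in 4 of 8 alternatives with all libraries (edgeR or DESeq2 adjusted p from 0.00140 to 0.0825, and 0.00602 with the replicate number as a block) and in 0 of the 4 fits that left out a library (0.0990 to 0.347). Traf1 was at 576 and 688 CPM in HET against 723 and 747 in KO Tregs, a log2 difference of 0.22 (standard error 0.10, edgeR adjusted p = 0.412). A20 transcripts (Tnfaip3) stood at 3617 and 4906 CPM in HET against 5099 and 5082 in KO Tregs (log2 difference 0.26, edgeR adjusted p = 0.528). The 2 KO values of Tnfaip3 were close to each other and just above the higher HET value, whereas the 2 HET values were far apart. Nfkbid was at 808 and 1207 CPM in HET against 1034 and 1140 in KO Tregs, so that both KO values lay between the HET values.

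Among the subunits, Nfkb1 was at 162 and 172 CPM in HET against 179.7 and 198 in KO Tregs (log2 difference 0.18, edgeR adjusted p = 0.390). Nfkb2 was at 328 and 305 CPM in HET against 344 and 357 in KO Tregs (log2 difference 0.15, edgeR adjusted p = 0.501). Of the 4584 exon bases of Nfkb2, 830 (18.1%) are shared with the antisense genes AC114539.1 and Psd. The counting ignored strand, so reads there cannot be assigned to 1 gene and may be missing from the Nfkb2 counts. Rela was at 305 and 299 CPM in HET against 287 and 285 in KO Tregs, the only member with both KO values below both HET values (log2 difference -0.078). Relb was at 209 and 207 CPM in HET against 204 and 230.2 in KO Tregs. Rel, with 276 and 379 CPM in HET against 268 and 414 CPM in KO Tregs, varied more within a genotype than between them. In all, 6 members had both KO values above both HET values and 1 below, where 21.8% of all genes tested did so upward and 21.8% downward. The log2 differences were positive for 9 of 10 members with a median of 0.16, against a median of 0.00298 over all genes. Within the mice numbered 1 the difference was positive for 7 members (median 0.24), and within those numbered 2 for 8 (median 0.14).

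Other genes of the pathway were grouped by role, in lists of 13 receptors and of 25 adaptors and kinases. Further lists held 16 genes that restrain or modify NF-kB activity and 19 targets, of which 18 were tested. The 16 are called inhibitors below, although not each of them only restrains NF-kB. In PP Tregs none of the receptors passed the test. Of the adaptors and kinases, Birc2, which encodes cIAP1, rose (log2 fold change 0.46, edgeR adjusted p = 0.0289) and Malt1, the paracaspase of antigen receptor signalling, fell (-0.56, edgeR adjusted p = 0.0255). Among the inhibitors Zc3h12d fell (-0.77, edgeR adjusted p = 0.0325). Among the targets Ebi3, a cytokine subunit of IL-35 and IL-27, and Lta, the lymphotoxin α gene, rose by 0.81 and 0.74 on the log2 scale (edgeR adjusted p = 0.0133 and 0.0148). From its PP data and edgeR's exact test, the paper proposes that most suppressive genes, Ebi3 included, do not depend on JunB. The medians of these pathway lists lay between 0.039 (inhibitors) and 0.11 (targets). Beside these differences, 8 of 10 markers of intestinal epithelium were lower in KO Tregs, and their summed level was between 163 and 208 CPM in HET and between 64.0 and 72.9 CPM in KO libraries. Il2ra (CD25) and Foxp3 were higher in KO Tregs, by 0.73 and 0.51 on the log2 scale (edgeR adjusted p = 0.0199 and 0.0167). The part of these genes in the values of the members was not tested.

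In CD25- PP Tregs, the comparison of iKO with iHET mice addresses short-term deletion in cells sorted without CD25. None of the members passed the Benjamini-Hochberg threshold (edgeR quasi-likelihood adjusted p = 0.999 for each), where 0% of the 17079 genes tested were called. At an unadjusted p under 0.05 there were 618 genes in all, Relb being the only member, and DESeq2 called 35 genes and edgeR's exact test 43, none of them a member. Relb was at 169 and 141 CPM in iHET and at 211 and 204 CPM in iKO libraries. Both iKO values lay above both iHET values, a log2 difference of 0.41 with a 95% confidence interval from 0.081 to 0.74 before adjustment (unadjusted p = 0.0223 in edgeR's quasi-likelihood test). Without iHET mouse 2 the difference was 0.28.

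The 3 inhibitors differed between the iHET mice themselves. Nfkbia was at 1193 and 769 CPM in iHET and at 1329 and 1355 CPM in iKO Tregs, a log2 difference of 0.45 (95% confidence interval -0.072 to 0.96), which became 0.16 without iHET mouse 2. Tnfaip3 was at 5368 and 2836 CPM in iHET and at 5759.8 and 5136 CPM in iKO Tregs, a log2 difference of 0.40 that became 0.010 without iHET mouse 2. Nfkbid was at 1002 and 438 CPM in iHET and at 1138 and 917 CPM in iKO Tregs, a log2 difference of 0.51 that became 0.025. In each case the lower iHET value is that of mouse 2. The same holds for Traf1, at 603 and 403 CPM in iHET and at 636 and 614 CPM in iKO Tregs, and for Birc3, at 219 and 149.7 CPM against 230.1 and 199 CPM. Their log2 differences of 0.31 and 0.21 became 0.040 and -0.037 without that library.

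Rel had the widest spread of the subunits, with 402 and 116 CPM in iHET and 448 and 314 CPM in iKO Tregs. Its log2 difference of 0.55 (95% confidence interval -0.72 to 1.82) became -0.087 without iHET mouse 2. Nfkb2 was at 248 and 185 CPM in iHET and at 256 and 276 CPM in iKO Tregs, a log2 difference of 0.29 that became 0.089. The other subunits varied little, with Rela at 283 and 260.4 CPM in iHET and at 261 and 273 CPM in iKO Tregs. Nfkb1 was at 219 and 216 CPM in iHET and at 225 and 234 CPM in iKO Tregs. Thus 5 members (Nfkb1, Nfkb2, Nfkbia, Relb and Traf1) had both iKO values above both iHET values, as did 16.5% of all genes tested. The median log2 difference was 0.35 over the members and -0.00224 over all genes. Within the male mice numbered 1 the median was 0.089, with differences from -0.12 to 0.32, and within the female mice numbered 2 it was 0.59, with differences from 0.067 to 1.43. Sex, the number of Foxp3ERT2cre alleles and the library that stood apart cannot be told apart here, as each genotype had 1 library of each sex. Without iHET mouse 2, none of the members and 41 genes in all were called. Without iHET mouse 1, which leaves the low library as the sole control, Nfkbia, Nfkbid, Rel and Tnfaip3 were called higher in iKO Tregs (log2 fold changes of 0.81, 1.23, 1.72 and 0.95) among 128 genes, the lone control being assumed to vary like the iKO libraries.

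None of the receptors, adaptors, inhibitors and targets passed the test in CD25- PP Tregs. Their medians lay between 0.058 (adaptors and kinases) and 0.29 (receptors) on the log2 scale. In the iHET library that stood apart, the orphan nuclear receptor gene Nr4a1, which antigen receptor signals induce, was at 1373 CPM against 3372 CPM in iHET mouse 1, while Fos was at 2164 against 1698 CPM. The summed level of B cell markers was 986 to 1055 CPM in iHET and 1131 to 1189 CPM in iKO libraries. That of 14 immediate early genes that cell isolation can induce was 15799 to 16927 CPM in iHET and 17914 to 21365 CPM in iKO libraries. Both sums, which are not TMM-normalized, were thus higher in both iKO libraries. Of all single genes tested, 16.5% were so after TMM normalization. Without iHET mouse 2, 3 of 10 epithelial markers were lower and 1 of 4 myeloid markers tested was higher in iKO Tregs, and with it none was. The part of these genes in the members' values was not tested.

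In colonic Tregs, iKO and iHET mice were compared with the mouse number as a block, since the study's methods describe 1 iHET and 1 iKO animal per cage. The sources do not say that the number is the cage, and without the block none of the members was called either. None of the members passed the test (edgeR quasi-likelihood, Benjamini-Hochberg adjusted p between 0.950 and 0.992), where 0.00613% of the 16313 genes tested were called, which was Junb alone, and 628 genes had an unadjusted p under 0.05, with no member among them. The levels of the 2 genotypes overlapped for all 10 members, while 8.35% of all genes had groups that did not overlap. Nfkbia was at 2611, 3769.9 and 4033 CPM in iHET and at 3337, 3726 and 3652.5 CPM in iKO Tregs, giving a log2 difference of 0.060 and a 95% confidence interval from -0.29 to 0.41. The 3 iKO values fell within the range of the iHET values. For Tnfaip3, the 3 iHET libraries were at 7821, 8557 and 6408 CPM and the iKO libraries at 7493, 8279 and 7409 CPM, a log2 difference of 0.029 (95% confidence interval -0.26 to 0.32). Nfkbid was at 824, 1164 and 995 CPM in iHET and at 966, 1019 and 861 CPM in iKO Tregs.

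The largest difference in the colon was that of Birc3, at 279.9, 335 and 318 CPM in iHET and at 259, 296 and 218 CPM in iKO Tregs. It was lower in iKO in each of the 3 pairs of the same number, with a log2 difference of -0.28 (95% confidence interval -0.60 to 0.035, unadjusted p = 0.0717 in edgeR's quasi-likelihood test). Its direction was the opposite of that in PP Tregs, but the difference between these experiments was not tested. Traf1 was at 965, 1091 and 1126 CPM in iHET and at 882, 1065 and 944 CPM in iKO Tregs. Rel was at 506, 758 and 484 CPM in iHET and at 466, 663 and 446 CPM in iKO Tregs (log2 difference -0.15). Mouse 2 was the highest for Rel in both genotypes. Rela was at 443, 519 and 462 CPM in iHET and at 411, 511 and 379 CPM in iKO Tregs, and Relb at 237, 253 and 267 CPM in iHET and at 218, 246 and 235 CPM in iKO Tregs. The precursors were at 242, 314 and 305 CPM in iHET against 225, 311 and 250.01 CPM in iKO Tregs for Nfkb1 and at 459, 476 and 511 CPM against 385, 510.5 and 382 CPM for Nfkb2. Each of the 5 subunits had a log2 difference between -0.20 (Nfkb2) and -0.12 (Relb), with 95% confidence intervals that all include 0. Over the members the median was -0.14 with 8 negative differences, against a median of 0.00467 over all genes. Within the numbers 1, 2 and 3, 8, 9 and 9 members were lower in the iKO library, with medians of -0.11, -0.037 and -0.23. None of the genes in the 4 pathway lists was called, and their medians lay between -0.099 (inhibitors) and 0.12 (targets).

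**Figure D4:**
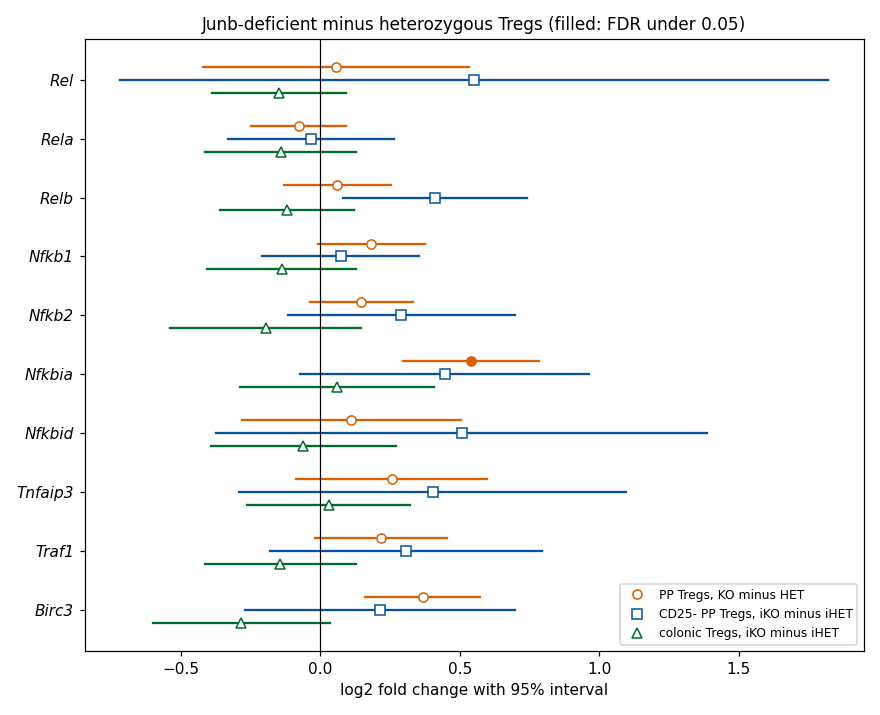
Log2 fold change of each member for KO against HET in PP Tregs and for iKO against iHET in CD25- PP and colonic Tregs, with symbols for the fitted value and lines for the 95% confidence interval before adjustment for multiple tests. Only Nfkbia in PP Tregs (0.54) passed an adjusted p of 0.05.

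Colonic Tregs were then compared with CD25- PP Tregs within each genotype of the inducible line. The colonic gate included CD25+ cells and the colon was digested with Dispase as well, so organ, gate and digestion cannot be told apart. In iHET mice 6 members were higher in the colon, namely Nfkbia, Nfkb2, Traf1, Rela, Relb and Birc3, and in iKO mice Nfkbia and Rela were. Nfkbia differed most, by 1.82 ± 0.23 on the log2 scale in iHET mice (edgeR adjusted p = 0.00274) and by 1.41 ± 0.22 in iKO mice (edgeR adjusted p = 0.0115), where errors are standard errors. The lowest colonic library, at 2611 CPM, was above the highest CD25- PP library, at 1355 CPM. Of 18626 genes tested, 6.45% were called in iHET mice, 4.22% higher and 2.23% lower in the colon, and 4.07% in iKO mice, 2.48% higher and 1.59% lower. The members' 6 of 10 and 2 of 10 calls, each higher in the colon, stand beside these shares.

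Of the subunits, Rela was the only one called in both genotypes, with log2 fold changes of 0.81 in iHET (standard error 0.15, edgeR adjusted p = 0.0135) and 0.70 in iKO mice (standard error 0.15, edgeR adjusted p = 0.0324). All 6 colonic values, from 379 CPM upward, exceeded all 4 CD25- PP values, the highest of which was 283 CPM. Nfkb2 was higher by 1.15 in iHET mice (standard error 0.17, edgeR adjusted p = 0.00630), with 0.68 in iKO mice (edgeR adjusted p = 0.0582). Relb was higher by 0.70 in iHET mice (standard error 0.12, edgeR adjusted p = 0.0119), where its lowest colonic value was 237 CPM and its highest CD25- PP value 169 CPM, with 0.17 in iKO mice (edgeR adjusted p = 0.474). Rel had fold changes of 1.17 and 0.46 on the log2 scale, with errors of 0.45 and 0.44, and passed in neither genotype (edgeR adjusted p = 0.159 and 0.590). Nfkb1 had the smallest differences of the subunits in iHET mice (0.40, edgeR adjusted p = 0.185).

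Among the induced genes, Traf1 was higher in the colon of iHET mice by 1.08 on the log2 scale (standard error 0.18, edgeR adjusted p = 0.00877), with 0.62 in iKO mice (edgeR adjusted p = 0.0764). Birc3 was higher by 0.76 in iHET mice (standard error 0.19, edgeR adjusted p = 0.0457), with 0.26 in iKO mice (edgeR adjusted p = 0.458). The call of Birc3 was lost with the replicate block (edgeR adjusted p = 0.0682) and in 7 of the 10 fits that left out a library. Tnfaip3 lay above every CD25- PP library in all 6 colonic libraries, at 6408 CPM or more against 5759.8 CPM or less, yet missed the threshold in both genotypes (log2 differences of 0.89 and 0.50, edgeR adjusted p = 0.0559 and 0.257). Nfkbid had an organ difference of 0.47 ± 0.29 in iHET and -0.11 ± 0.29 in iKO mice (edgeR adjusted p = 0.397 and 0.861). Its colonic values, from 824 to 1164 CPM, overlapped those in CD25- PP Tregs, from 438 to 1138 CPM. In iHET mice 9 members, all but Nfkbid, had every colonic value above every CD25- PP value, against 18.8% of all genes. In iKO mice 6 members did (Nfkb2, Nfkbia, Rela, Relb, Tnfaip3 and Traf1), against 23.0% of all genes. The median over the members was 0.85 in iHET and 0.48 in iKO mice, against -0.00860 and 0.0140 over all genes.

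Leaving out the library that stood apart leaves 1 CD25- PP iHET library. Whether calls of iHET mice were lost through its values or through the smaller group cannot be told apart. Without CD25- PP iHET mouse 2, Nfkbia was the only member called (log2 fold change 1.55, edgeR adjusted p = 0.0350) among 137 genes in all, and the other 5 members called with it had fold changes of 0.96 (Nfkb2), 0.82 (Traf1), 0.75 (Rela), 0.58 (Relb) and 0.51 (Birc3) on the log2 scale, with edgeR adjusted p between 0.0727 and 0.371. Nfkbid was then at -0.0064. Leaving out CD25- PP iHET mouse 1 instead makes the library that stood apart, the lowest for every member, the sole CD25- PP iHET library. In iKO mice, Nfkbia was called in 8 and Rela in 6 of the 10 fits that left out 1 library, and neither was called without iKO CD25- PP mouse 1 or 2. Some of these 10 fits left out an iHET library and so kept every iKO library of the comparison. The sources do not say whether CD25- PP and colonic libraries of the same number came from the same mouse, and the main fit did not pair them. Between libraries of the same number, the colonic one was higher for 9 members in male iHET mice (median log2 ratio 0.51). For number 2 it was higher for 10 members in iHET mice (median 1.38). In iKO mice it was higher for 8 and 10 members (medians 0.27 and 0.74). Nfkbia was the member that kept its call without the doubted library in both genotypes.

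Whether the organ difference depends on JunB was examined by the interaction term of a fit to all 10 inducible libraries. None of the members passed (edgeR quasi-likelihood, adjusted p = 1.00 for each), where 0% of the 18626 genes were called, 622 genes had an unadjusted p under 0.05, and DESeq2 called 2 genes. All 10 interaction terms were negative, between -0.71 (Rel) and -0.10 (Rela) with a median of -0.46, so that the fitted organ difference was smaller in iKO mice. Relb, at -0.53 (standard error 0.17), was the only member with an unadjusted p under 0.05 (edgeR, unadjusted p = 0.0113). The 2 organ comparisons and the 2 genotype comparisons share their libraries, and the low CD25- PP iHET library enters every term, so the members' common sign is not independent evidence. Without that library the term of Tnfaip3 was 0.00293 and the other 9 stayed negative, between -0.41 (Relb) and -0.045 (Rela). Calls in iHET and not in iKO mice were therefore not shown to differ between genotypes.

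**Figure D5:**
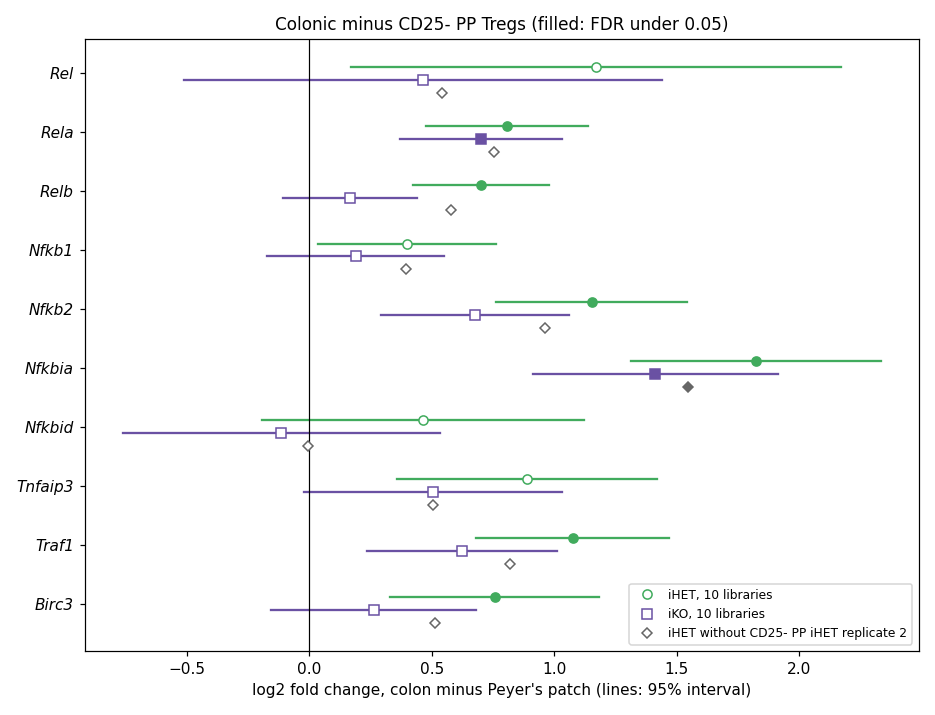
Log2 fold change of each member for colonic against CD25- PP Tregs in iHET and in iKO mice, with lines for the 95% confidence interval before adjustment, and diamonds for iHET mice without the CD25- PP library of mouse 2. Filled symbols passed an adjusted p of 0.05, as did Nfkbia in both genotypes (1.82 and 1.41) and in iHET mice without that library (1.55).

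Upstream of NF-kB, 6 of 13 receptors rose in the colon of iHET mice and 1 fell. Those higher were Il1rl1, the IL-33 receptor ST2 (log2 fold change 2.99), Cd40 (3.28), Tnfrsf9, which encodes 4-1BB (1.96), Il1r1 (1.95), Tnfrsf25 (0.73) and Cd28 (0.72), and Cd27 was lower (-1.13; each past an edgeR adjusted p of 0.05). In iKO mice Il1rl1, Tnfrsf9, Il1r1 and Cd28 rose (2.42, 1.52, 1.70 and 0.61) and Cd27 fell (-0.99). Without CD25- PP iHET mouse 2, a left-out library chosen after these values were seen, 3 of the 7 receptor calls in iHET mice were kept (Il1rl1, Tnfrsf9 and Cd27), and in iKO mice 5 of 5. The adaptors and kinases had medians near 0, with medians of 0.043 (iHET) and -0.13 (iKO). Of these 25 genes, Traf6 rose in both genotypes (0.59 and 0.74), Birc2 rose in iHET mice (0.76) and Traf5 fell in both (-0.74 and -0.61). Without that library 0 of the 3 calls in iHET mice were kept, and in iKO mice that of Traf6.

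Of the 16 further genes that restrain or modify NF-kB activity, 6 rose in the colon of iHET mice and none fell. These were Zc3h12a, the RNase regnase-1 (1.70), Nfkbiz (1.59), Nfkbie (1.10), Nfkbib (1.03), Bcl3 (0.90) and N4bp1 (0.55). In iKO mice Nfkbib rose (0.96) and Otud7b fell (-0.65). Among the targets, 5 rose in iHET mice, namely Ier3 (3.07), the survival gene Bcl2l1 (2.20), the adhesion gene Icam1 (1.84), and the transcription factor genes Irf4 (1.61) and Irf1 (1.23). The chemokine gene Ccl5 was lower (-2.36 in iHET and -2.74 in iKO mice). The same 5 targets and Lta (0.70) rose in iKO mice, by between 1.03 (Irf1) and 2.57 (Ier3). Without CD25- PP iHET mouse 2, the calls kept in iHET mice were 1 of 6 among the inhibitors (Nfkbiz) and 1 of 6 among the targets (Bcl2l1), each of the 12 keeping its sign, and in iKO mice 0 of 2 and 6 of 7.

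Other differences between the organs stood beside those of the members. Il2ra was higher in the colon by 1.71 in iHET and 1.63 in iKO mice on the log2 scale (edgeR adjusted p = 0.000747 and 0.00120) and Foxp3 by 1.00 in iHET mice. Of the 9 Treg markers, 3 were called in iHET mice and 2 in iKO mice. Those in iKO mice were Il2ra and Ikzf2 (Helios), which was lower in the colon. Of 14 immediate early genes 5 were higher in the colon of iHET mice, Atf3 (3.45), Fosb (2.42), Zfp36 (1.00), Ppp1r15a (0.84) and Ier2 (0.81), and Btg2 was lower (-0.84). In iKO mice Atf3 and Zfp36 were higher (2.73 and 1.06) and Btg2 lower (-1.02). The summed level of the immediate early genes was between 18950 and 28760 CPM in colonic and between 15799 and 21365 CPM in CD25- PP libraries. Of the 9 myeloid markers, Cd14, Fcer1g and Clec7a were higher in the colon of iHET mice (6.34, 4.40 and 3.57) and Cd14 in that of iKO mice (5.52), their sum being between 98.7 and 292 CPM in colonic and between 60.3 and 113 CPM in CD25- PP libraries. The 9 B cell markers summed to between 227 and 419 CPM in colonic and between 986 and 1189 CPM in CD25- PP libraries, 2 of them, Ighm and Cd22, passing the test. The 10 epithelial markers summed to between 199 and 2034 CPM in colonic and between 158 and 385 CPM in CD25- PP libraries, and none passed the test. No marker of these cell types was at 0 in every library of a group. Without CD25- PP iHET mouse 2, the calls of Il2ra and Ighm were kept in iHET mice and those of Foxp3, Cd22, the immediate early genes and the myeloid markers were lost. These genes' part in the members' differences was not tested.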

How the data were processed

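RNA-seq counts of 14 libraries were used, in 2 tables. TrimGalore and CutAdapt were used by the authors for trimming, STAR for alignment to GRCm38 with multi-mapped reads left out, and reads were assigned to GENCODE M22 genes by featureCounts without regard to strand, and the deposited values are whole counts without normalization. The reverse reads of the inducible line's libraries were left out by the authors. IDs were matched to GENCODE M21 (55394 of 55487 in the inducible and 53706 of 53801 in the Foxp3-YFP-cre table).

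The tools were edgeR 4.0.16, DESeq2 1.42.0 and limma 3.58.1 under R 4.3.3, with figures from Python 3.11.15 and matplotlib 3.10.9. Genes reaching 1 CPM in as many libraries as the smaller group were kept, counts were normalized by TMM with a prior count of 1, and genes were called at a Benjamini-Hochberg FDR of 0.05 in edgeR's quasi-likelihood test. The genotype comparisons were fitted on their own libraries, that of the colon with the mouse number as a block, in place of the cage that the study's methods use as a factor, although the sources do not tie number and cage, and the organ comparisons on the 10 inducible libraries without a block. CPM of the inducible libraries share 1 TMM normalization, sums of CPM over lists are not TMM-normalized, and the labels place each sample in its group. Confidence intervals (95%) are from the fits. The reads carry no molecular identifiers, so the level of 3 counts covers counting error only.

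Alternatives were DESeq2 size factors, upper-quartile normalization, no filter, a minimum of 10 counts in each library, a 0.125 prior, DESeq2's Wald test, the study's exact or likelihood ratio test, fits with or without the replicate block, the 10 libraries together, leaving out mice numbered 3, and leaving out each library. Calls of the lists without CD25- PP iHET mouse 2 were added after seeing the data. All 10 members are named, with Junb, Foxp3 and Il2ra as checks, and from other hand-written lists up to 6 called genes with the lowest p per list and comparison. Nr4a1 and Fos were chosen after their values were seen. Although the rule for the members reads only symbols, the members and lists were chosen with earlier results of these data known. The fits were tested on simulated data.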

Additional observations from a re-analysis of the deposited data

How the results depend on the processing

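In fits other than those that left out 1 library, none of the members' log2 fold changes reversed, and 485 of 500 kept their direction and side of the threshold, while 2 lost and 13 gained significance. With 1 library left out, 394 of 440 did so, 20 lost and 9 gained significance and 17 reversed. The cause was not tested. In the colonic genotype fits, which used the mouse number as a block, leaving out either library of a number gave similar values. For Birc3 these were -0.3657 without iHET mouse 1 and -0.3660 without iKO mouse 1, so the 6 colonic fits are not separate checks. In PP Tregs, 3 members were called without the filter on low counts (Nfkbia, Birc3 and Tnfaip3), 2 by DESeq2, 2 by the exact test and 2 with the replicate block, in place of 1, and between 0 and 1 with a library left out. In the organ comparison of iHET mice, in place of 6, 8 were called without the filter and by DESeq2, 5 with the replicate block, 5 without the mice numbered 3 and between 1 and 9 with a library left out, and in iKO mice, in place of 2, 4 were called without the filter and 4 by DESeq2, 2 with the replicate block, and between 0 and 3 with a library left out. In CD25- PP Tregs 0 to 4 members were called with a library left out, and in colonic Tregs and the interaction 0 in each fit. Over all genes, 1305 were called in PP Tregs without the filter, 696 by DESeq2, 689 by the exact test and 1015 with the replicate block, in place of 409, and 54 to 313 with a library left out. In CD25- PP Tregs 232 were called without the filter, 1 with at least 10 counts, 35 by DESeq2, 43 by the exact test and 1 with 10 libraries together (0 to 128 with a library left out). In colonic Tregs 24 were called without the filter, 50 by DESeq2 and 25 by the likelihood ratio test (0 to 8). In iHET mice 2848 were called between organs without the filter and 2504 by DESeq2 in place of 1201 (137 to 1700), and in iKO mice 2348, 2233 and, with the replicate block, 430 in place of 758 (74 to 1096). The interaction had 282 calls without the filter and 2 by DESeq2 (0 to 0). Fold changes that reversed did so in fits that left out a library, with log2 ranges of -0.15 to 0.43 (Nfkbid), -0.29 to 0.34 (Rel) and -0.031 to 0.15 (Relb) in PP Tregs, -0.10 to 0.037 (Rela), -0.037 to 0.52 (Birc3) and -0.087 to 1.72 (Rel) in CD25- PP Tregs, -0.085 to 0.17 (Nfkbia), -0.20 to 0.019 (Nfkbid) and -0.054 to 0.081 (Tnfaip3) in colonic Tregs, -0.0064 to 1.20 (Nfkbid, organ in iHET mice), -0.26 to 0.060 (Nfkbid, organ in iKO mice) and -0.93 to 0.00293 (Tnfaip3, interaction). Deviations of same-numbered libraries correlated by 0.098 in PP and 0.101 in CD25- PP Tregs. With 2 libraries per group the other pairing has the opposite value by construction, so these values cannot show a pairing. In the colon same-numbered libraries correlated by 0.062, 0.293 and -0.089, and those of different number by between -0.272 and 0.182. The numbers were thus not shown to pair the samples. The study's methods report that colonic samples clustered more by cage than by genotype. Depth does not limit the members, the lowest of which was at 116 CPM.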
